A study of Mus musculus with 14 samples.

Results

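The nuclear-encoded subunits of oxidative phosphorylation were followed over 5 levels of H2B-GFP label in mouse bone marrow LSK cells (negative for lineage markers, positive for Sca1 and Kit), the marrow fraction with stem cells and early progenitors. They were the genes with a single annotated symbol matching Ndufa, Ndufb, Ndufc, Ndufs or Ndufv plus a number, Sdha to Sdhd, Uqcr, Cox4i, Cox5 to Cox8 or Atp5, without the Ndufaf assembly factors and without mitochondrially encoded genes. The rule found 81 genes of 18194, with 35 in complex I, 4 in complex II, 8 in complex III, 17 in complex IV and 17 in complex V. Each gene was read by its brightest probe set over the 14 arrays. The rule used no difference between levels.

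All mice were double transgenic (hCD34 x H2BGFP) on a C57BL/6 background, backcrossed for at least 10 generations. In this tet-off system a human CD34 promoter drives the transactivator tTA, and tTA drives the H2B-GFP fusion, so labelling depends on the cells in which that promoter is active. Doxycycline at 1 mg/ml in drinking water, begun at an age of 6 to 8 weeks, was given for 12 weeks to every group and stopped the labelling, after which division diluted the GFP. LSK cells were then sorted into GFP0 (most diluted, 2 arrays), GFP1 (3 arrays), GFP2 (3 arrays), GFP3 (2 arrays) and GFP4 (label retained, 4 arrays). GFP level is thus read as a rank of division history among labelled cells, with about 1 to 2 divisions between levels. Cells labelled weakly or not at all could also fall in GFP0, and these values cannot tell them apart from cells that diluted their label. The labels call the arrays biological replicates without naming the animals, and the p-values therefore speak only to the spread among these 14 sorted samples.

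Oxidative phosphorylation passes electrons from NADH through complex I and from succinate through complex II to ubiquinone, then through complex III and cytochrome c to complex IV, which reduces oxygen. Complexes I, III and IV pump protons across the inner mitochondrial membrane, and complex V, the ATP synthase, uses the returning protons to make ATP. Most subunits are nuclear genes whose products are imported and joined with a few mitochondrially encoded ones. Quiescent hematopoietic stem cells are known for a low reliance on respiration and for high glycolysis, and their exit from quiescence for a rise in mitochondrial activity.

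The genes were also described by their promoters, because nuclear respiratory factor and ETS-family sites are textbook features of this gene family. RefSeq promoters of 300 bases ran from 250 before to 50 after the annotated start (GRCm38.p6). They matched 66 of the 81 genes by gene identifier, and 15 had none, among them Cox6a2, Uqcrq and Atp5mpl. Motifs were searched on both strands. GCGCATGC, a part of the palindromic site of NRF1, was in 13.6% of matched subunits (9 genes) and in 3.05% of all genes with a promoter. The ETS core CGGAAG, which GABP binds, was in 43.9% (29 genes) and in 18.8% of all. The YY1 motif AAGATGGC was in 13.6% (9 genes) and in 3.19% of all. CAAGGTCA, the site of estrogen-related receptors, was in 6.06% and in 1.76% of all, the GC box GGGGCGGGG in 16.7% and in 12.9%, and TATAAA in 12.1% and in 15.7%. These are matches of letters in a window, and no binding was measured. Of the 9 YY1 matches 7 began after the start, against 40.2% of the YY1 matches in all promoters, and the letters of that motif include ATG.

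The 250 bases before the start are shown for 4 genes, chosen after their values and matches were seen, to set a called subunit beside windows with NRF1, ETS and GC box letters. Capitals mark the matches to the motifs above that lie wholly within these bases. Matches that cross or follow the start are not marked. They are ETS letters in Ndufa9, Sdhb and Atp5k, and YY1 letters in Ndufa9 and Atp5pb. Ndufa9 holds the ETS letters beginning 77 bases before the start (minus strand of the gene), Sdhb the GC box at 134 and the NRF1 letters at 54, Atp5k overlapping NRF1 matches of both strands at 50 and 48, and Atp5pb the GC box at 72 and the ETS letters at 50. Ndufa9 lies at chr6:126849145-126849394 (minus strand of the genome), Sdhb at chr4:140961021-140961270 (plus), Atp5k at chr5:108434400-108434649 (minus) and Atp5pb at chr3:105959264-105959513 (minus).
Ndufa9: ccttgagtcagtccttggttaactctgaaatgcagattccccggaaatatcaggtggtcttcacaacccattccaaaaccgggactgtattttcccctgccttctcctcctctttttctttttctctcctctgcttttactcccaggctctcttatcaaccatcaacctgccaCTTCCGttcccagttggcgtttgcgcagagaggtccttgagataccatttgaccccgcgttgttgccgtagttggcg
Sdhb: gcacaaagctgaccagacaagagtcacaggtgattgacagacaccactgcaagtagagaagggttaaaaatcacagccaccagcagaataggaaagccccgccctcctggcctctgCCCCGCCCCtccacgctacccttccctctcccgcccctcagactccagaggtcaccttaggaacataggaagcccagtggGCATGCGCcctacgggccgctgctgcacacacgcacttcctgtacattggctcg
Atp5k: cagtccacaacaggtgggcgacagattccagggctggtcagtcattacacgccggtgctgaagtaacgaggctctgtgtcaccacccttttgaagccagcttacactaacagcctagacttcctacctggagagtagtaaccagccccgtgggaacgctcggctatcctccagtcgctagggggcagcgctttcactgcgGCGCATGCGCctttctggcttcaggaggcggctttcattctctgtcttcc
Atp5pb: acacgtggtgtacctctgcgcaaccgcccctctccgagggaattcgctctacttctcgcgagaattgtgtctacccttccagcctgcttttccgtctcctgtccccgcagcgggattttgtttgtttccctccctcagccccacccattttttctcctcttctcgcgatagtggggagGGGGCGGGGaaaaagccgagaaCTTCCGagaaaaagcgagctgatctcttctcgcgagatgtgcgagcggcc

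Values are log2 expression as deposited, differences are log2 differences, and a slope is the log2 change per GFP level over the 5 group means. Array medians ran from 6.96 to 7.18 and interquartile ranges from 2.09 to 2.73, with the narrowest in GFP0 array 1. Kit (8.05 to 9.91 over the arrays) and Cd34 (9.73 to 12.01) were read in every array, and Ly6a, which encodes Sca1, had no probe set with a single symbol. Among cell type markers, 6 of 7 measured stem cell genes were called higher over the levels (list means from 8.01 to 8.19 in GFP0 and from 10.39 to 10.88 in GFP4), and 4 of 5 multipotent and lymphoid progenitor genes were called lower (11.16 to 11.21 in GFP0 and 8.46 to 9.57 in GFP4). Of the proliferation genes 5 of 6 were measured and 2 called lower, and their mean ran from 11.13 to 11.77 in GFP0 and from 9.11 to 10.87 in GFP4. All 9 myeloid markers were measured and 1 called lower, with means from 11.35 to 12.58 in GFP0 and from 8.21 to 11.23 in GFP4. The 3 prime minus 5 prime difference of Actb was lowest in GFP1 array 1 (2.99) and highest in GFP4 array 4 (5.05). These are also the arrays in which the subunits stood highest and lowest. The same difference of Gapdh was lowest in GFP0 array 2 (4.84) and highest in GFP3 array 1 (6.58). Its level mean was lowest in GFP0 (5.15 ± 0.44, SD, n = 2) and highest in GFP3 (6.34 ± 0.34, n = 2). For Actb both GFP0 arrays (4.39 and 4.51) lay above both GFP3 arrays. The part of RNA quality, proliferation and any of these cell type lists in the results below was not tested. In sorted bulk samples, fewer cells of a type and less RNA per cell cannot be told apart.

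Across the 5 levels the subunits leaned lower toward retained label, by small amounts that only 2 genes carried past the test. Ndufa9, an accessory subunit of complex I, fell by 0.26 per level (± 0.06, SE; adjusted p = 0.0272, limma with Benjamini-Hochberg adjustment over all genes). Cox6a2, the heart and muscle form of a complex IV subunit, fell by 0.39 per level (± 0.09, SE; adjusted p = 0.0302). None rose. The 2 of 81 called compare with 3.35% of all genes called in either direction, 1.07% lower and 2.28% higher, so the share called is near the background. At an unadjusted p under 0.05, 25 of 81 were lower and 0 higher, beside 7% and 9.71% of all genes (16.7% together).

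The direction was shared more widely than the calls. Slopes were below 0 for 75 of 81 subunits, beside 54.8% of all genes, and the count was 75 with arrays centred on their medians and 73 with cyclic loess. The median slope was -0.08 over the subunits and -0.01 over all genes. Over the 64 subunits with a mean of at least 10 it was -0.09, and over all genes that bright it was -0.002. By complex the median was -0.10 for I, -0.14 for II, -0.06 for III, -0.05 for IV and -0.08 for V. Slopes were below 0 for 33 of 35 genes in complex I, 4 of 4 in II, 8 of 8 in III, 15 of 17 in IV and 15 of 17 in V. The 6 above 0 were Ndufa6, Ndufa7, Cox7a2l, Cox8b, Atp5a1 and Atp5l, none of them past the test, and for all of these but Ndufa7 the sign turned under at least 1 alternative.

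**Figure D1:**
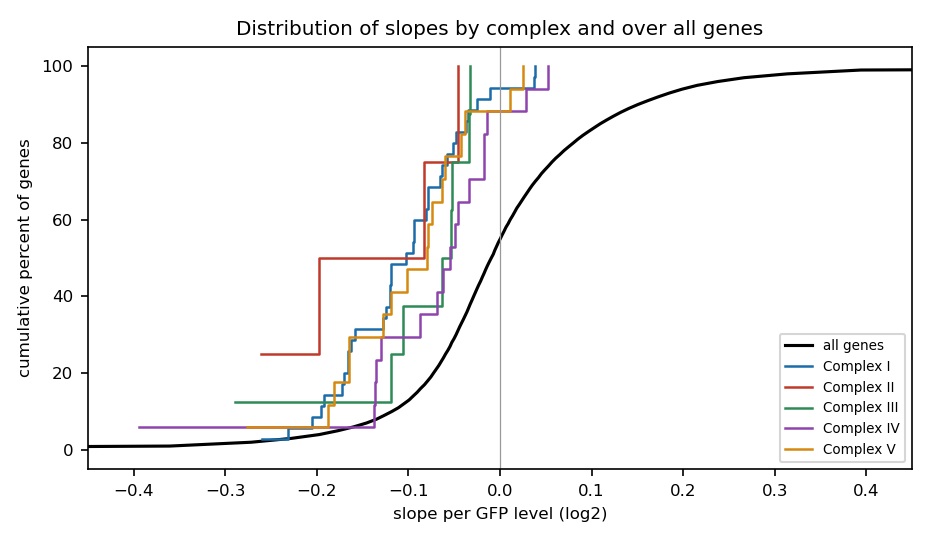
Cumulative percent of genes (vertical axis) against the slope per GFP level in log2 units (horizontal axis), for the subunits of each complex (coloured steps) and for all 18194 genes (black line). The steps of all 5 complexes lie to the left of the black line through the middle of the distribution, with 75 of 81 subunits left of 0 beside 54.8% of all genes.

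**Figure D2:**
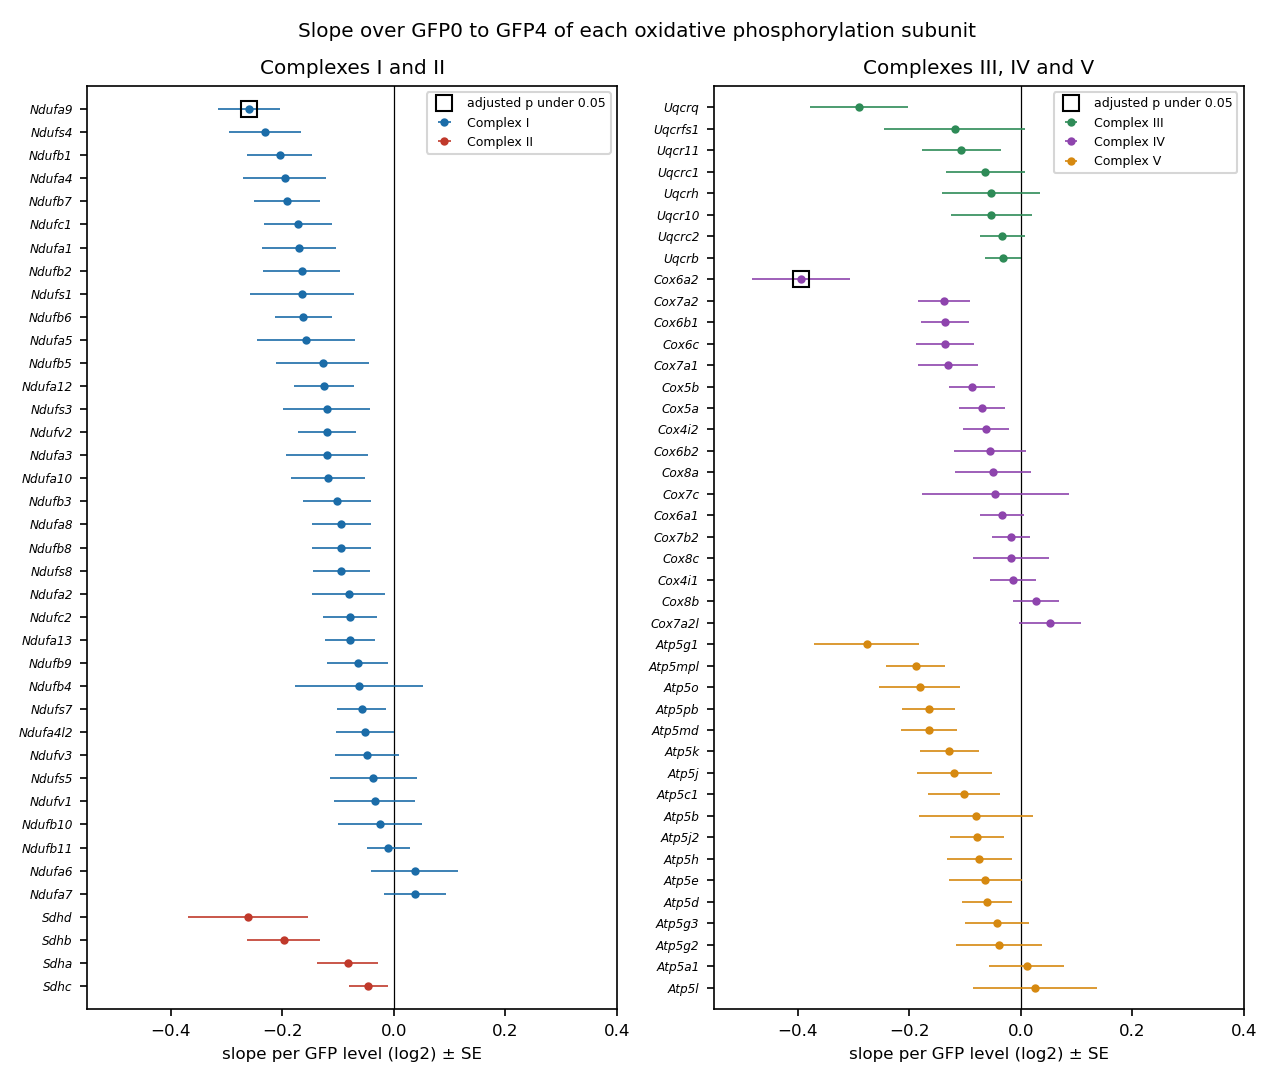
Slope per GFP level (log2) of each of the 81 subunits with its moderated standard error, grouped and coloured by complex. Boxes mark the 2 genes with an adjusted p under 0.05, Ndufa9 (-0.26) and Cox6a2 (-0.39) and 75 of the 81 slopes lie left of 0.

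The ends of the scale gave a like picture. Ndufa9 was lower in GFP4 than in GFP0 by 1.13 (± 0.25, SE; adjusted p = 0.0412), the 1 call among the 81, beside 1.68% of all genes called, 0.429% lower and 1.25% higher. The call held without GFP1 array 1, 2 or 3 or GFP4 array 3 and was lost without any 1 of the other arrays, where the adjusted p ran from 0.0520 to 0.159 and the difference from -1.42 to -0.85. At an unadjusted p under 0.05, 19 subunits were lower and 0 higher, beside 5.99% and 8.72% of all genes (14.7% together). The estimate was below 0 for 71 of 81 (54.6% of all genes), and every GFP4 array lay below both GFP0 arrays for 36 subunits (7.75% of all genes). These 36 were 15 genes of complex I, 3 of II, 2 of III, 6 of IV and 10 of V. Every GFP4 array lay above both GFP0 arrays for 1 subunit, Ndufa7 (10.4% of all genes). The median difference was -0.34 over the subunits and -0.04 over all genes, and by complex it was -0.38 for I, -0.60 for II, -0.20 for III, -0.21 for IV and -0.44 for V. Slope and GFP4 against GFP0 share these arrays and are not separate evidence.

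Array by array, the median of the subunits, each centred on its own mean, was 0.24 and 0.25 in GFP0. It was 0.42, -0.07 and -0.11 in GFP1, and 0.21, 0.08 and -0.05 in GFP2. In GFP3 it was -0.12 and -0.27, and in GFP4 -0.03, -0.04, -0.01 and -0.39. Both GFP0 arrays lay above every GFP3 and GFP4 array. GFP1 array 1 (0.42) lay above all other arrays. The remaining GFP1 arrays and all GFP2 arrays lay below both GFP0 arrays, and both levels overlapped GFP4. Group means were 0.25 ± 0.01 (SD, n = 2) in GFP0, 0.08 ± 0.30 (n = 3) in GFP1, 0.08 ± 0.13 (n = 3) in GFP2, -0.19 ± 0.10 (n = 2) in GFP3 and -0.12 ± 0.18 (n = 4) in GFP4. The number of subunits above their own mean was 64 and 66 of 81 in the GFP0 arrays, 73 in GFP1 array 1 and 10 in GFP4 array 4. The SD in GFP1 is larger than its distance from any other level.

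**Figure D3:**
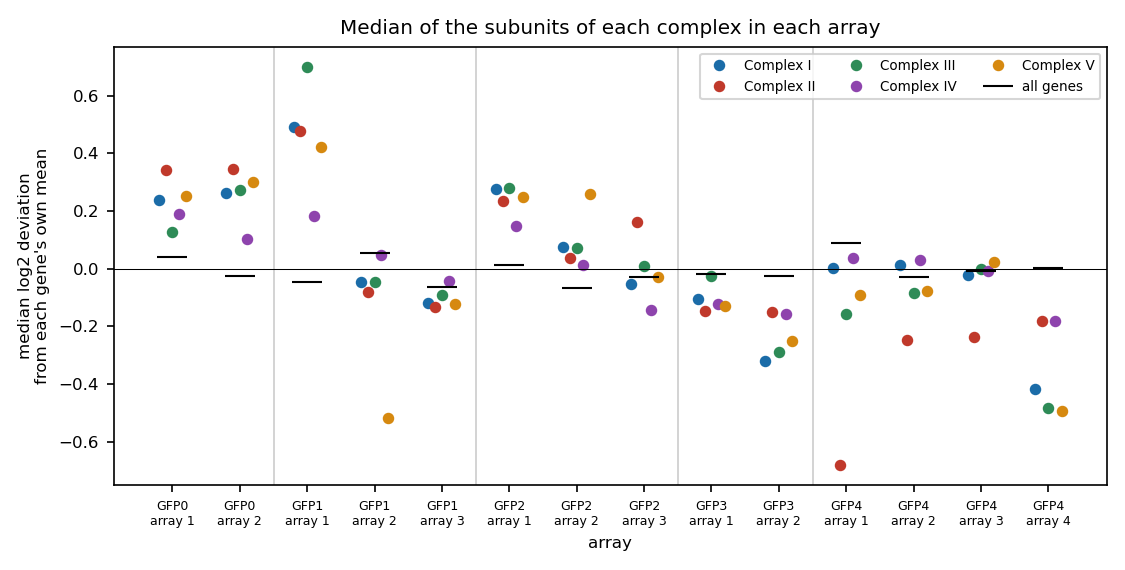
Median over the subunits of each complex of the log2 deviation from each gene's own mean (vertical axis) in each of the 14 arrays (horizontal axis), with the median of all genes as a black dash. The GFP0 arrays lie above 0 for all 5 complexes, GFP1 array 1 is the highest for complexes I, II, III and V, and GFP4 array 4 lies below 0 for all 5, while complex V in GFP1 array 2 (-0.52) and complex II in GFP4 array 1 (-0.68) depart from the other complexes.

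Between neighbouring levels no subunit passed the test, and neither did any other gene (0% of all genes called at each of the 4 steps, limma). At an unadjusted p under 0.05 there were 9 subunits from GFP0 to GFP1, 7 lower and 2 higher, beside 4.9% and 5.93% of all genes (10.8% together). From GFP1 to GFP2 there was 1, lower, beside 1.1% lower and 1.6% higher of all genes (2.71%). From GFP2 to GFP3 there were 3, all lower, beside 0.566% lower and 0.791% higher (1.36%), and from GFP3 to GFP4 2, both lower, beside 2.7% lower and 1.24% higher (3.94%). The step from GFP2 to GFP3 had the most one-sided estimates, with 75 of 81 below 0 beside 48.8% of all genes and a median of -0.31 beside 0.01. Over subunits with a mean of at least 10 the median was -0.33, beside -0.08 over all genes that bright. The 3 subunits past the unadjusted threshold there were Ndufb1, Ndufb3 and Ndufb6, accessory subunits of the membrane arm of complex I, at -0.63, -0.67 and -0.52 (named for this count, after their values were seen). From GFP0 to GFP1, 58 of 81 were below 0 (55% of all genes) with a median of -0.18 beside -0.05. From GFP1 to GFP2, 43 were below 0 (53.5% of all genes) with a median of -0.01 beside -0.02. From GFP3 to GFP4, 32 were below 0 (43.2% of all genes) with a median of 0.10 beside 0.05. For these other steps the medians of subunits with a mean of at least 10 were -0.16, 0.01 and 0.10. Those of all genes that bright were 0.09, 0.11 and -0.13. The 4 steps share groups, and the difference between steps was not tested.

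The highest group mean was in GFP0 for 48 subunits (36.2% of all genes), in GFP1 for 21 (13.8%), in GFP2 for 9 (15.7%), in GFP3 for 0 (15.4%) and in GFP4 for 3 (18.9%). The lowest was in GFP3 for 43 (19.2% of all genes), in GFP4 for 25 (16.8%), in GFP1 for 7 (14.9%), in GFP0 for 5 (28.1%) and in GFP2 for 1 (21%). A lowest mean in GFP3 was thus more frequent than one in GFP4. The test of any difference between levels called 0 subunits (11 at an unadjusted p under 0.05, beside 12.8% of all genes) and 0.698% of all genes, with the smallest adjusted p for Ndufa9 (0.0743). The test of a departure from a straight line called 0 subunits (2 at an unadjusted p under 0.05, Ndufs4 and Cox6a2, beside 7.01% of all genes) and 0% of all genes.

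**Figure D4:**
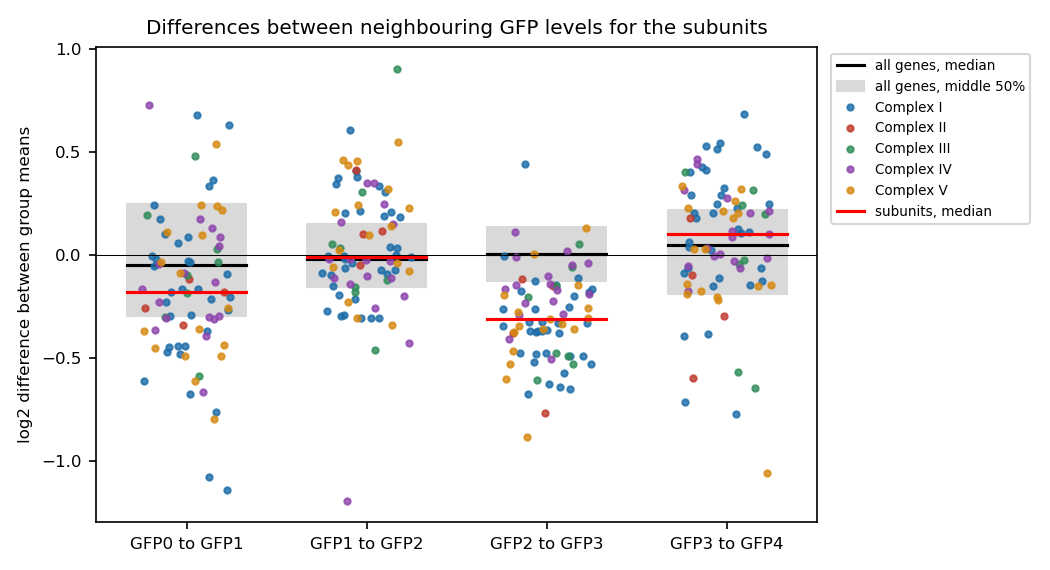
Log2 difference between the group means of neighbouring GFP levels (vertical axis) for each of the 81 subunits, coloured by complex, at the 4 steps (horizontal axis). Red lines are the subunits' medians, black lines the medians of all genes and grey boxes their middle 50%, and at GFP2 to GFP3 the subunits' median of -0.31 lies below the grey box.

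Complex I takes electrons from NADH. Ndufa9, which lies where its peripheral arm meets the membrane and helps to hold the 2 arms together, read 11.33 and 11.89 in GFP0, 12.01, 11.39 and 11.34 in GFP1, 11.79, 11.47 and 11.48 in GFP2, 11.23 and 11.27 in GFP3, and 10.41, 10.25, 10.89 and 10.35 in GFP4. All 4 GFP4 arrays lay below all 10 others, GFP3 lay just below GFP0, GFP1 and GFP2, and these 3 overlapped. The step from GFP3 to GFP4 was -0.77. The slope lost its call without GFP0 array 2 (adjusted p = 0.121), GFP3 array 1 (0.0582), GFP3 array 2 (0.0829) or GFP4 array 4 (0.0641), with slopes from -0.26 to -0.20. It was also lost with array quality weights (adjusted p = 0.236) and with 3 prime to 5 prime covariates (0.0919). A block for the replicate number, or leaving out arrays 1 of GFP0 and GFP4 together, removed the call too.

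Ndufs4, an accessory subunit of the NADH-binding module, read 10.49 and 9.74 in GFP0, 9.28, 8.62 and 9.03 in GFP1, 9.39, 9.16 and 9.01 in GFP2, 8.82 and 8.41 in GFP3, and 9.58, 9.19, 9.17 and 8.64 in GFP4. Both GFP0 arrays stood above every other array, GFP2 lay above GFP3, and GFP1 and GFP4 overlapped both. Its slope was -0.23 ± 0.07 (SE; adjusted p = 0.0765), from a probe set of a type that can cross-hybridise (_x_at). Another probe set, not of that type, was almost as bright (mean 9.17 beside 9.18). It had a slope of -0.14 ± 0.07 and a GFP4 against GFP0 difference of -0.53 beside -0.97. The other, dimmer probe sets had slopes of -0.17 and -0.02. Ndufs1, the largest iron-sulfur core subunit, had a slope of -0.17 ± 0.09 (adjusted p = 0.414), and Ndufv1, which carries the flavin that accepts electrons from NADH, -0.03 ± 0.07 (adjusted p = 0.853). Ndufa6 and Ndufa7, accessory subunits of the peripheral arm, had slopes of 0.04 ± 0.08 and 0.04 ± 0.06.

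Within complex I the median slope was -0.12 for the 13 Ndufa genes, -0.10 for the 11 Ndufb genes, -0.13 for the 2 Ndufc genes, -0.11 for the 6 Ndufs genes and -0.05 for the 3 Ndufv genes. Ndufb genes, parts of the membrane arm, had the lowest group mean in GFP3 for 9 of 11 and in GFP4 for 0. Ndufa4, named for complex I and now placed in complex IV, had a slope of -0.20 ± 0.07 (adjusted p = 0.195), and its paralog Ndufa4l2, a hypoxia-inducible gene, one of -0.05 ± 0.05 (adjusted p = 0.689). The difference between these paralogs was not tested.

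Complex II oxidises succinate and also belongs to the TCA cycle. Sdhd, a membrane anchor, read 10.34 and 9.97 in GFP0, 11.28, 8.94 and 9.70 in GFP1, 10.65, 10.64 and 9.88 in GFP2, 9.61 and 9.64 in GFP3, and 8.93, 9.21, 9.33 and 8.63 in GFP4. The GFP4 arrays lay below those of GFP0, GFP2 and GFP3, and GFP1 ran from within GFP4 to above every other array. The slope was -0.26 ± 0.11 (SE; adjusted p = 0.237). Sdhb, the iron-sulfur subunit whose promoter with NRF1 letters is shown above, had a slope of -0.20 ± 0.07 (adjusted p = 0.134), with 12.63 and 12.76 in GFP0 and 11.50, 12.33, 12.05 and 11.79 in GFP4. Sdha, the flavoprotein, had -0.08 ± 0.05 (adjusted p = 0.494) and Sdhc, the other anchor, -0.05 ± 0.04 (adjusted p = 0.568). All 4 slopes lay below 0, and none passed the test.

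Complex III passes electrons from ubiquinol to cytochrome c. Uqcrq, a small ubiquinone-binding subunit, read 11.95 and 12.04 in GFP0, 12.70, 12.49 and 11.38 in GFP1, 12.30, 11.65 and 11.24 in GFP2, 11.58 and 10.67 in GFP3, and 10.86, 11.46, 11.20 and 10.81 in GFP4. All GFP4 and GFP3 arrays lay below both GFP0 arrays, while GFP1 and GFP2 overlapped both ends. The slope was -0.29 ± 0.09 (SE; adjusted p = 0.0989), and its 3 dimmer probe sets had slopes from -0.10 to 0.03. The Rieske iron-sulfur protein Uqcrfs1 had -0.12 ± 0.13 (adjusted p = 0.7), with 9.15 in GFP1 array 2 against 10.01 or more in every other array. The core protein Uqcrc1 had -0.06 ± 0.07, its partner Uqcrc2 -0.03 ± 0.04 and Uqcrb -0.03 ± 0.03.

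Complex IV passes electrons to oxygen, and several of its nuclear subunits exist as a common form and a form of heart, muscle, lung or testis. Cox6a2 read 10.83 and 9.01 in GFP0, 9.39, 9.89 and 9.59 in GFP1, 8.86, 8.41 and 8.02 in GFP2, 8.42 and 7.97 in GFP3, and 8.51, 8.85, 8.58 and 8.71 in GFP4. GFP0 and GFP1 lay above GFP2, GFP3 and GFP4 without overlap, all GFP4 arrays lay above both GFP3 arrays, and GFP2 overlapped both. Its GFP4 against GFP0 difference was -1.26 ± 0.39 (adjusted p = 0.132). Both values depend on the GFP0 arrays. Without GFP0 array 1 the slope was -0.21 and the difference -0.35. Without GFP0 array 2 they were -0.58 and -2.17.

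Its second, dimmer probe set, of a type that can cross-hybridise (_x_at), had a slope of -0.97 ± 0.12 (adjusted p = 0.00239 over all probe sets). The Cox6a2 slope lost its call without GFP0 array 1, GFP3 array 2, GFP4 array 1 (adjusted p = 0.0501), GFP4 array 3 (0.0551) or GFP4 array 4 (0.062). The call was lost too with array quality weights (0.0946), 3 prime to 5 prime covariates (0.0986), a regression on the level (0.0829) or a block for the replicate number. Markers of mast cells and basophils (4 of 4 measured) had means from 9.39 to 9.92 in GFP0 and 7.21 to 10.10 in GFP1. These ran from 6.62 to 8.88 in GFP2, 6.25 to 6.37 in GFP3 and 6.06 to 8.49 in GFP4. Their median slope was -0.79, beside -0.85 for the myeloid list and -0.81 for the multipotent and lymphoid list. The B, T and NK, erythroid and proliferation lists also had median slopes below 0, and the LSK and stem cell lists above 0. The part of any of these lists in the Cox6a2 result was not tested. The common form Cox6a1 had a slope of -0.03 ± 0.04 (adjusted p = 0.73), and the difference between the forms was not tested.

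The other isoform groups of complex IV held no call. Cox7a2 had a slope of -0.14 ± 0.05 (adjusted p = 0.147) and the muscle form Cox7a1 -0.13 ± 0.05 (adjusted p = 0.244). Cox7a2l, which helps to join complexes III and IV in supercomplexes, had the most positive slope of the 81, 0.05 ± 0.06 (adjusted p = 0.7), and read between 13.94 and 14.32 in 13 arrays and 13.10 in GFP1 array 2. Cox6b1 had -0.14 ± 0.04 (adjusted p = 0.109) and the testis form Cox6b2 -0.05 ± 0.06. Cox4i1 had -0.01 ± 0.04, the lung form Cox4i2 -0.06 ± 0.04, Cox8a -0.05 ± 0.07, Cox8b 0.03 ± 0.04 and Cox8c -0.02 ± 0.07. Cox4i2, Cox7a1 and Cox7b2, with Ndufb4 of complex I, had means below the table median of 7.03, where a probe set may report little transcript.

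**Figure D5:**
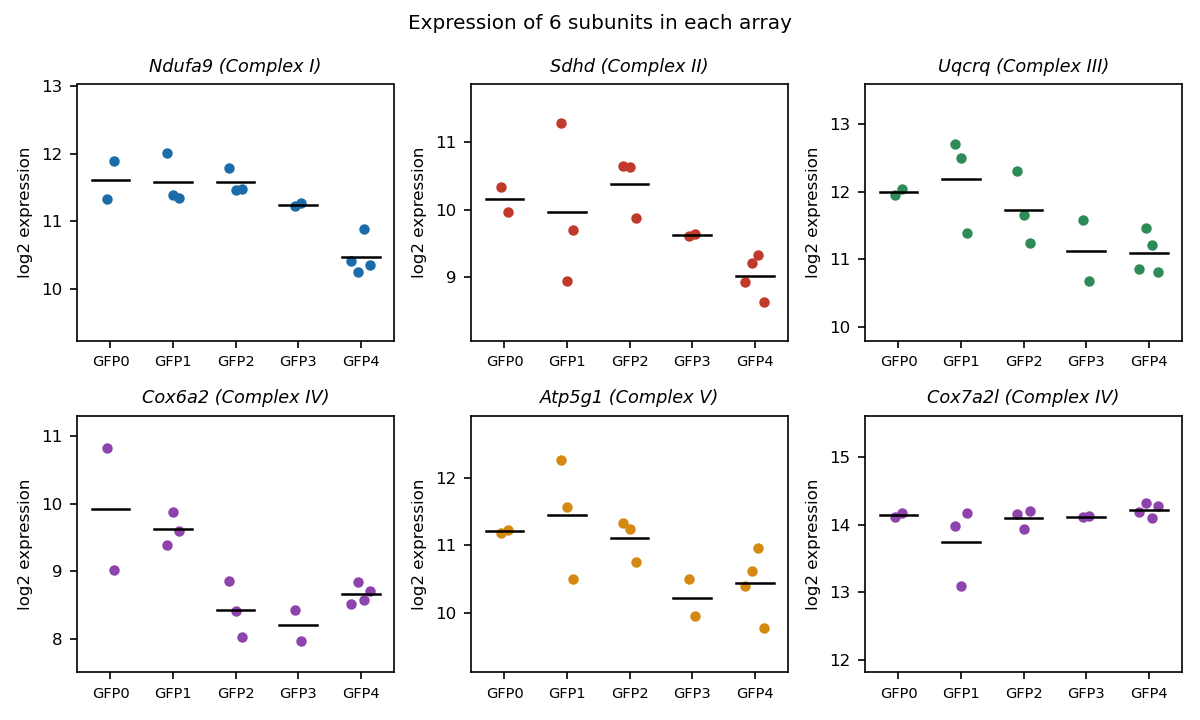
Log2 expression (vertical axis, the same span in every panel) of 6 subunits in each array, by GFP level (horizontal axis), with the group mean as a black line. Ndufa9 is lower in all 4 GFP4 arrays, Cox6a2 is higher in GFP0 and GFP1 than in the other levels, and Sdhd, Uqcrq and Atp5g1 have a wide spread in GFP1, while Cox7a2l (slope 0.05) stays level but for GFP1 array 2.

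Complex V has a membrane part, Fo, that conducts protons, stalks, and a catalytic head, F1. Atp5g1, 1 of 3 genes for the c subunit of the Fo ring, read 11.18 and 11.23 in GFP0, 12.26, 11.57 and 10.50 in GFP1, 11.33, 11.23 and 10.75 in GFP2, 10.50 and 9.95 in GFP3, and 10.39, 10.62, 10.95 and 9.77 in GFP4. Every GFP3 and GFP4 array lay below both GFP0 arrays, and GFP1 spanned most of the range. The slope was -0.28 ± 0.09 (SE; adjusted p = 0.142). Atp5g2 and Atp5g3, which encode the same mature c subunit, had slopes of -0.04 ± 0.08 and -0.04 ± 0.06, and the difference between the 3 genes was not tested.

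Atp5mpl, a small membrane subunit, had a slope of -0.19 ± 0.05 (adjusted p = 0.0751) and read 11.55 and 11.21 in GFP0 and between 10.63 and 10.83 in GFP4, with no overlap. Atp5pb, the peripheral stalk subunit b shown above, had -0.17 ± 0.05 (adjusted p = 0.0815), and Atp5k, the membrane subunit e, -0.13 ± 0.05 (adjusted p = 0.235). In the catalytic head the slope was 0.01 ± 0.07 for Atp5a1 (alpha) and -0.08 ± 0.10 for Atp5b (beta). The median slope was -0.06 over the 5 F1 genes (the head with the central stalk) and -0.12 over the other 12 genes. At an unadjusted p under 0.05, 0 of the 5 and 6 of the 12 were lower, beside 7% of all genes, and the difference between these groups was not tested. Atp5l, a membrane subunit, had 0.03 ± 0.11, and the step of Atp5b from GFP3 to GFP4 was -1.06, which passed an unadjusted p under 0.05 only.

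Deviations of the subunits from their group means ran together over the 14 arrays. The mean pairwise Pearson correlation of these deviations was 0.33 over all subunits, beside 0.02 over all genes and 0.12 over all genes with a mean of at least 10. It was 0.49 in complex V (0.32 among the F1 genes and 0.63 among the other 12), 0.38 in I, 0.22 in IV, 0.18 in III and 0.13 in II. These pairs share arrays, so depth of signal and RNA quality of an array can enter every one. Their part was not tested, and the values describe these 14 arrays.

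Other genes of the pathway were taken from 11 lists holding 200 measured genes. The slope called 4 of the 200, all lower, beside 3.35% of all genes called in either direction, 1.07% lower and 2.28% higher. Of the 200 slopes 153 were below 0, beside 54.8% of all genes, with a median of -0.08. Atpif1, the inhibitor that stops the ATP synthase from running backwards, fell by 0.23 per level (± 0.05, SE; adjusted p = 0.0246). Timm8a1 and Timm23, which serve protein import, fell by 0.37 ± 0.08 and 0.23 ± 0.05 (adjusted p = 0.0243 and 0.0362), and Mrps28 of the mitochondrial ribosome by 0.28 ± 0.07 (adjusted p = 0.0475). None of the 200 passed for GFP4 against GFP0 (limma), beside 1.68% of all genes. At an unadjusted p under 0.05, 36 were lower there and 5 higher, beside 5.99% and 8.72% of all genes. For the slope these counts were 44 and 3, beside 7% and 9.71% of all genes, and of these the mitochondrial ribosome held 24 and 0. Without GFP3 array 2 or GFP4 array 4 the slope called 0 of the 200, without either GFP0 array 1 of them, and without GFP1 array 3 it called 10.

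The mitochondrial ribosome had 71 of 76 slopes below 0, a median of -0.12 and 1 call. Protein import had 18 of 23 below 0 with 2 calls, and the ATP synthase assembly factors and inhibitor 2 of 4 with 1 call. Assembly factors held no call, with 11 of 15 below 0 for complex I (Nubpl -0.28 ± 0.12, Tmem126b 0.13 ± 0.07), 9 of 10 for complexes II and III (Uqcc1 -0.21 ± 0.07, Sdhaf4 0.06 ± 0.05) and 13 of 18 for complex IV (Coa6 -0.19 ± 0.08, Coa4 0.11 ± 0.05). Electron and nucleotide carriers had 12 of 18 below 0 (Coq7 -0.30 ± 0.11, Slc25a4 0.08 ± 0.09), pyruvate dehydrogenase and the TCA cycle 11 of 17 (Fh1 -0.23 ± 0.12, Ogdh 0.14 ± 0.05), and pyruvate dehydrogenase kinases and uncouplers 4 of 6 (Ucp1 -0.07 ± 0.05, Pdk4 0.09 ± 0.05), with no call.

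Regulators of mitochondrial biogenesis leaned the other way without a call, with 2 of 12 slopes below 0 and a median of 0.05. Ppargc1a, which encodes the coactivator PGC-1alpha, had a slope of 0.45 ± 0.18 (adjusted p = 0.218), with 6.27 and 5.06 in GFP0 and 7.68, 5.30, 8.47 and 8.94 in GFP4, so that GFP4 array 2 lay among the GFP0 values. Gabpb1, a subunit of the ETS factor GABP, had -0.26 ± 0.07 (adjusted p = 0.0645), and its 4 GFP4 arrays, from 6.95 to 7.71, lay below both GFP0 arrays at 8.22 and 8.77. The 1 mitochondrially encoded gene with a single symbol, ND5, a complex I subunit, had 0.05 ± 0.07 (adjusted p = 0.768).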

How the data were processed

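Amplified, biotin-labelled RNA of 14 sorted LSK samples was read on 1-colour Affymetrix arrays, per the labels' protocols. The authors deposited log2 expression per probe set. GCOS, RMA and affy (versions not given) were used, per the submitters' processing notes. RMA subtracts background, makes the arrays' quantiles alike and merges the probes of a set, which is meant to remove differences common to most genes. Shifts shared by bright genes remained in the deposited values. The median deviation of genes with a mean of at least 10 ran from -0.28 in GFP0 array 1 to 0.20 in GFP2 array 3. No detection calls were used. The genome build is not given in the sources used here, and promoters are RefSeq's (GRCm38.p6). Each column matched 1 sample, and 0 columns matched none.

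Of 45101 probe sets 34958 named 1 symbol in the platform annotation, and the brightest per symbol gave 18194 genes. The 81 subunits were read by 9 probe sets ending in _x_at, 13 in _s_at and 30 in _a_at, which can share sequence with other transcripts or genes. A further 9 probe sets name a subunit among several symbols, such as Ndufb4 or Ndufs6, and were left out.

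In limma 3.58.1 (R 4.3.3), all 14 arrays entered a model of group means with moderated variances (eBayes), because 2 groups hold only 2 arrays. Contrasts were the slope over levels (the 5 levels weighted alike), GFP4 against GFP0 and the 4 steps, with moderated F tests for any difference and for departure from a line. Tests were two-sided, adjusted by Benjamini-Hochberg over all genes, with a threshold of 0.05. The small number of arrays limits the precision. The fit was tested on simulated data. Figures were drawn with matplotlib 3.10.9.

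The subunits and lists were chosen with earlier results of these data known. Genes named were those past a test, the 2 most negative and 2 most positive slopes of each complex, isoform groups and core subunits, and for the lists those past a test (at most 4) or else the steepest each way. Others named are said to be chosen after their values were seen, or illustrate a count. Alternatives were other array scalings, dim-gene filters, probe-set choices, variance models, array weights, a replicate block, covariates for 3 prime to 5 prime difference or interquartile range, a regression on level, and leaving out arrays.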

Additional observations from a re-analysis of the deposited data

Results flagged for a closer look

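Of 41 GFP4 values examined (the only level with enough arrays for an outlier test), 5 had 1 array set apart from the other 3 by Dixon's criterion, where chance gives about 1 in 20. The complex I median was -0.42 in GFP4 array 4 and -0.02 in the next array. The complex II median was -0.68 in GFP4 array 1 and -0.25 in the next. Atp5g3 read 13.28 in GFP4 array 4 and 13.59 in the next. Cox6b1 read 13.79 in GFP4 array 1 and 13.73 in each of the others, a gap that is small in log2 terms. Ndufa7 read 11.53 in GFP4 array 3 and 10.92 in the next. GFP4 array 4 also had the highest Actb 3 prime minus 5 prime difference (5.05) and GFP4 array 1 the lowest mean of proliferation genes (9.11), and their part in these values was not tested.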

How the results depend on the processing

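Of the subunits called for the slope (2), 0 stayed called with array quality weights, with the replicate block, with 3 prime to 5 prime covariates, without arrays 1 of GFP0 and GFP4, and without these and GFP4 array 2. Leaving out 1 array gave 0 (GFP3 array 2 or GFP4 array 4) to 5 (GFP1 array 3). For GFP4 against GFP0 (1), the count was 0 with arrays centred on their medians, a variance trend, array weights, the replicate block, either covariate, the same arrays left out, or the 2 groups alone, 2 with the mean over probe sets, and 0 to 1 without 1 array. Any difference (0) called 2 with the mean over probe sets, 1 with array weights and 0 to 1 without 1 array (1 without GFP0 array 2). Steps and departure stayed at 0 in every alternative run.

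The number of slopes below 0 (75) ran from 71 to 78 without 1 array and from 71 (dim genes left out, which also drops 4 subunits) to 76 in the other alternatives. The median slope stayed below 0 for every complex in all alternatives. Without 1 array the slope median ran from -0.12 to -0.08 in complex I, -0.18 to -0.11 in II, -0.09 to -0.04 in III, -0.090 to -0.043 in IV and -0.13 to -0.06 in V. The GFP4 against GFP0 median ran from -0.44 to -0.24 in I, -0.79 to -0.47 in II, -0.29 to -0.11 in III, -0.40 (without GFP0 array 2) to -0.065 (without GFP4 array 4) in IV and -0.48 to -0.32 in V. The complex III slope median was -0.11 without arrays 1 of GFP0 and GFP4 and GFP4 array 2.

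For the pathway lists, the slope count (4) was 2 with arrays centred on their medians or the interquartile range covariate, 7 with cyclic loess or the mean over probe sets, 10 with regression on the level, 1 without the 3 arrays, 0 with weights, block, 3 prime to 5 prime covariates or without arrays 1, and 0 to 10 without 1 array. For GFP4 against GFP0 (0) it was 1 with loess, dim genes left out, the mean over probe sets, the interquartile range covariate or without the 3 arrays, and 0 to 3 without 1 array. The cause of these changes was not tested.

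Whether the replicate numbers pair the samples cannot be told from these values. Deviations of same-numbered arrays correlated between -0.26 and 0.58 (median 0.05), with 9 of 23 pairs above 0.1. For different numbers the correlations ran from -0.63 to 0.48 (median -0.05), with 20 of 54 above 0.1. In groups of 2 arrays the deviations mirror each other, which ties these values together. Myeloid marker means fell with the number in GFP1 (12.33, 11.67 and 8.86) and GFP2 (11.80, 10.70 and 8.37), also in GFP0 and GFP3, not in GFP4. The subunits' array medians also fell with the number in GFP1 (0.42, -0.07 and -0.11), GFP2 (0.21, 0.08 and -0.05) and GFP3 (-0.12 and -0.27). They did not in GFP0 (0.24 and 0.25), and in GFP4 they ran -0.03, -0.04, -0.01 and -0.39. Numbers and levels are unbalanced, with 2 arrays in GFP0 and 4 in GFP4. With the replicate block the median GFP4 against GFP0 difference was -0.16 in complex I and -0.10 in complex IV, and no subunit was called for the slope (0; adjusted p = 0.0968 for Ndufa9 and 0.0785 for Cox6a2) or for GFP4 against GFP0 (0).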

Other observations

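Of the 48 subunits read by several probe sets, 11 had probe sets with slopes of both signs. Over all 164 probe sets with a single subunit symbol, 146 slopes were below 0, with 3 called lower (Ndufa9 and both of Cox6a2) and 0 higher. The 9 probe sets that name a subunit among several symbols lie outside the 81 genes. Their slopes ran from -0.29 (Ndufs6b and Ndufs6) to 0.06 (Yjefn3 and Ndufa13), and none passed the test. The brightest, for Ndufb4b, Ndufb4c and Ndufb4, had -0.19 (adjusted p = 0.0985, limma). The next brightest had -0.29 (Ndufs6b and Ndufs6; adjusted p = 0.205) and -0.13 (Ndufa11b and Ndufa11; 0.496).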
